A study of Rattus norvegicus with 19 samples.

Results

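Fatty acid binding proteins and fatty acid uptake proteins were followed in the livers of rats on 3 diets. The genes were Fabp1, Fabp2, Fabp4, Fabp5 and Fabp7, which encode intracellular fatty acid binding proteins, and Cd36 and Slc27a2, which encode membrane or membrane-associated proteins of fatty acid entry. Every non-control probe whose name in the files, or whose current RefSeq symbol by accession or synonym, was one of these 7 genes was taken. This gave 9 probes of 41012 non-control probes, with 2 probes each for Fabp1 and Slc27a2 and 1 probe for each other gene. All 9 passed the filter on dim probes, which kept 25292 probes.

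The animals were adult male wild-type Wistar rats, 8 weeks old at the start, which ate 1 of 3 diets for 4 months and were killed fed, early in the morning. In the low-fat Control diet (7 rats), carbohydrate supplied 70% of the energy, fat 10% and protein 20%. In the high protein diet (HP, 6 rats), protein, mostly casein, supplied 45%, carbohydrate another 45% and fat 10%. In the high fat diet (HF, 6 rats), fat supplied 60%, carbohydrate 20% and protein 20%. HP and Control therefore shared their percentage of fat and differed in protein and carbohydrate together. HF differed from Control in fat and carbohydrate together, and from HP in fat, carbohydrate and protein. Each array compared the liver RNA of 1 rat, labelled with Cy5, with an equimolar pool of liver RNA, labelled with Cy3, without dye swaps. Values are log2 ratios of rat over pool unless a log2 difference between diets is named, and a ratio of 1 probe cannot be set against that of another. Rats were separate animals, so the spread between them includes biological variation.

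Long-chain fatty acids reach hepatocytes from plasma albumin and lipoproteins, and proteins such as CD36 and the SLC27 family of fatty acid transport proteins take part in their uptake. Inside the cell, fatty acid binding proteins are small soluble carriers that take fatty acids to sites of oxidation, esterification and gene regulation. Fabp1 is the abundant liver form, whereas Fabp2, Fabp4, Fabp5 and Fabp7 are best known from intestine, fat cells and macrophages, skin, and brain, respectively. Slc27a2 also activates very long-chain fatty acids to their coenzyme A esters.

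Cy5 was well above background for 53.6% to 67.1% of the probes, depending on the array. All 10 hepatocyte markers examined were detected. Control 6 stood apart: its median over 5 detected lymphocyte markers was 2.29, against -0.92 to -0.66 in the HP and HF rats, and the standard deviation of its log2 ratios was 0.44, against 0.20 to 0.29 on the other arrays. The arrays came from 5 slides, of which slide 1 was the only one that carried both HP and HF rats. In whole tissue, fewer cells of a type and less RNA per cell cannot be told apart.

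In the HF livers Fabp5 was 8.79 times lower than in Control livers, and no other member probe passed the test in that comparison. HP livers had more Fabp5 and less Fabp7 and Slc27a2 than HF livers, but the Slc27a2 calls were lost with slide as a block and the Fabp7 call without the arrays of slide 1. Between HP and Control livers no member probe passed the test. Fabp1, Fabp2, Fabp4 and Cd36 passed it in no comparison.

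By limma with Benjamini-Hochberg adjustment over all 25292 probes, 0 of 9 member probes differed between HP and Control, where 0.447% of all probes were called (0.308% higher and 0.138% lower) and 0 of 9 had groups without overlap, against 0.779% of all. Without adjustment 1 of 9 had a p under 0.05, against 14.4% of all probes. Between HF and Control 1 of 9 member probes was called, lower in HF, where 3.46% of all probes were called, 1.72% higher and 1.73% lower. In that comparison 5 of 9 had an unadjusted p under 0.05, against 15.7% of all probes. Between HP and HF 4 of 9 were called, 1 higher and 3 lower in HP, where 7.08% of all probes were called, 3.81% higher and 3.27% lower. An unadjusted p under 0.05 was reached by 5 of 9, against 20.2% of all probes. By the F test for any difference among diets 4 of 9 were called, against 6.57% of all probes. The median log2 difference of the member probes was -0.03 for HP minus Control, 0.26 for HF minus Control and -0.40 for HP minus HF, and the medians over all probes were -0.01, -0.01 and -0.0014. The members are few and include 2 pairs of probes for the same gene, and the 3 comparisons share rats. They were also chosen with earlier results of these data known, so these shares are no test of the family.

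**Figure D1:**
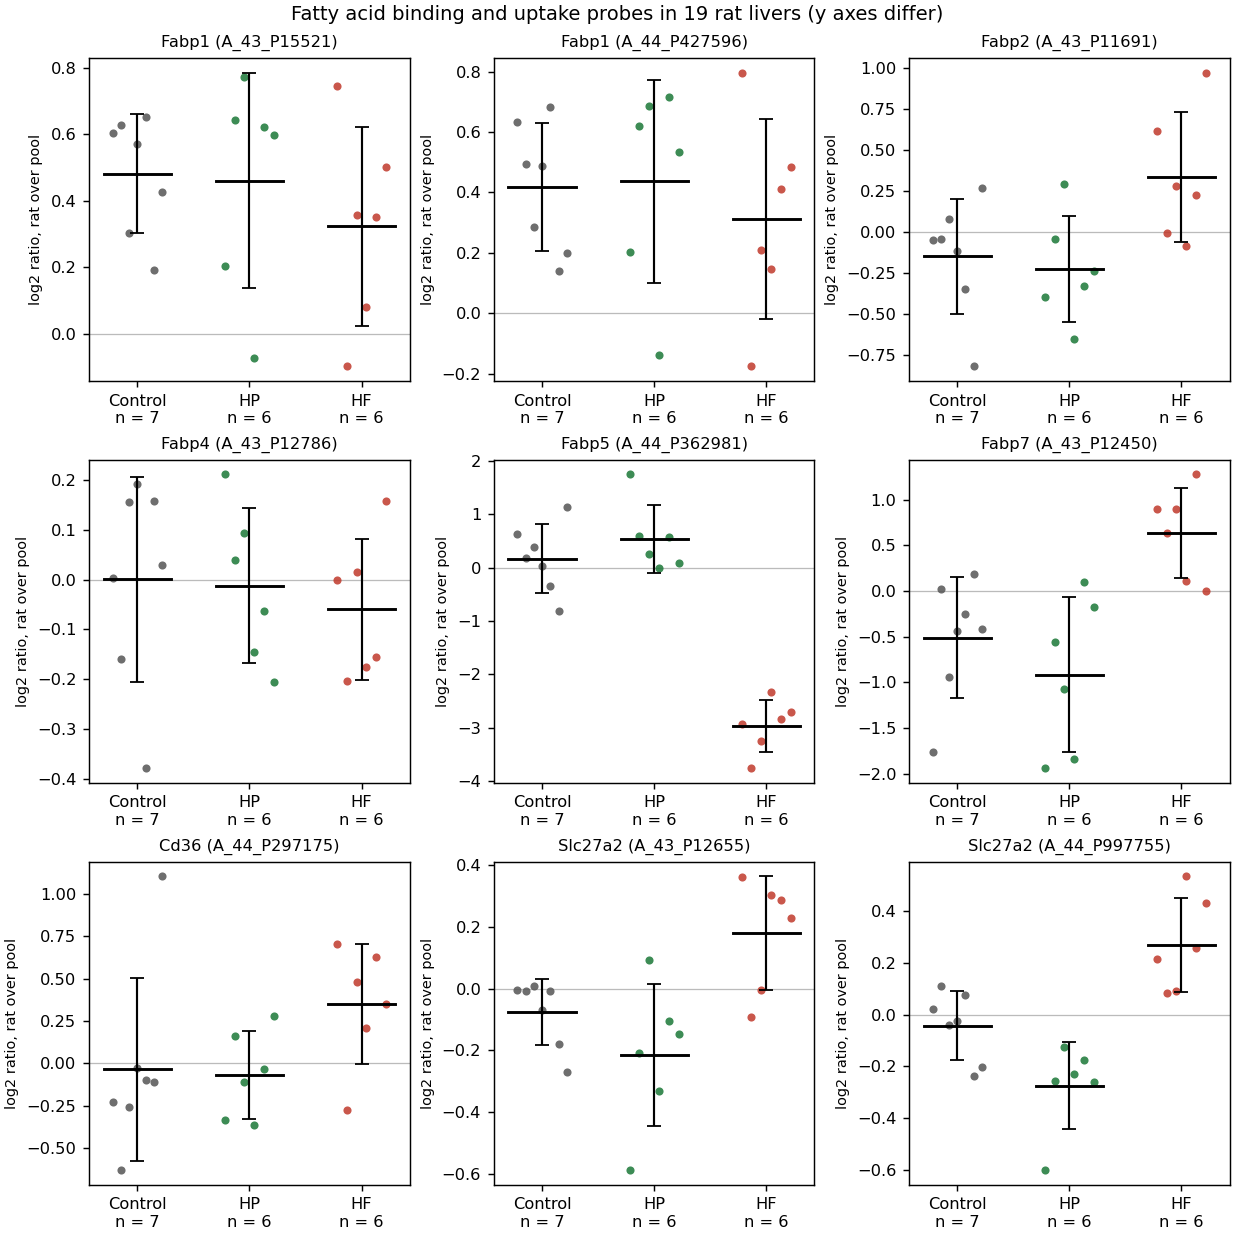
Log2 ratio of rat over pool for each of the 9 member probes in 19 livers by diet. Points are rats, the thick line is the group mean and the bar is 1 SD (n = 7 Control, 6 HP and 6 HF). The y axes differ between panels. The HF points of Fabp5 lie between -3.75 and -2.33, below every Control and HP point.

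**Figure D2:**
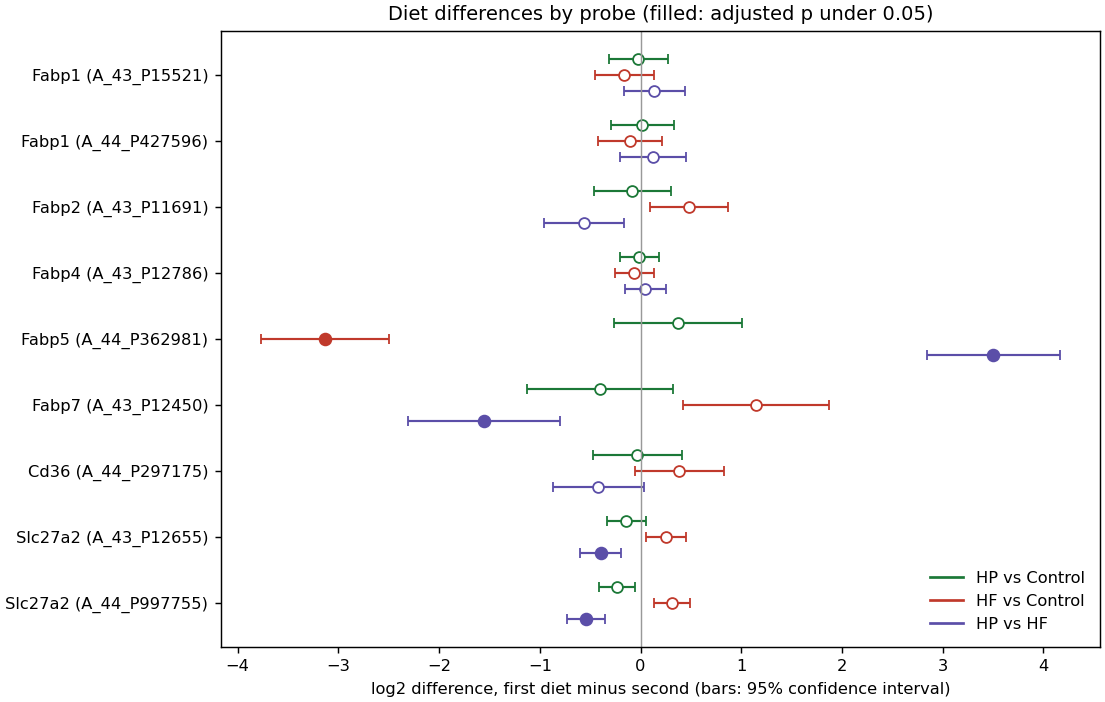
Log2 difference between diets (first diet minus second) for each member probe, with the 95% confidence interval of the limma model. Filled points passed an adjusted p of 0.05. Fabp5 at -3.13 (HF minus Control) and 3.50 (HP minus HF) lies farthest from 0.

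Fabp1, the abundant fatty acid carrier of hepatocytes, was read by 2 probes, at chr4:104415250-104415919 and chr4:104413796-104413855 on rat build rn4, the build of the array files. With the first probe, log2 ratios ran from 0.19 to 0.65 in Control rats (median 0.57), from -0.07 to 0.77 in HP rats (median 0.61) and from -0.10 to 0.75 in HF rats (median 0.35). The 3 diets overlapped over most of their range, and the lowest values belonged to HF 2 and HP 4. The log2 difference of HF minus Control was -0.16 (95% confidence interval -0.45 to 0.13), that of HP minus Control -0.02 (-0.31 to 0.27) and that of HP minus HF 0.14 (-0.17 to 0.44). With the other probe the differences were -0.11, 0.02 and 0.12, also uncalled, and the signs of the HP minus Control differences were not stable under other processing. Without the arrays of slide 1, HP minus HF was 0.42 on both probes and uncalled (limma adjusted p = 0.054 and 0.070). Within slide 1 it was -0.68 and -0.76, with 2 HP rats against 1 HF rat. The 2 probes moved together across the 19 arrays (r = 0.96 as a description), with a gap of at most 0.22 between their log2 ratios. Raw Cy5 intensity of the 2 probes lay between 206600 and 413500 and was saturated in no rat. Spread between rats of 1 diet was larger than for most probes, with a within-diet SD of 0.27 for the first probe against a median of 0.13 over all probes.

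Fabp5, the epidermal fatty acid binding protein, carried the largest difference among the members. Its log2 ratio lay between -0.82 and 1.13 in Control rats (median 0.18), between -0.02 and 1.74 in HP rats (median 0.41) and between -3.75 and -2.33 in HF rats (median -2.89). Every HF rat was below every other rat, and Control and HP rats overlapped. The log2 difference of HF minus Control was -3.13 ± 0.30 (SE), with a limma adjusted p of 1.33e-05. That of HP minus HF was 3.50 ± 0.32, an 11.3-fold higher level in HP, with a limma adjusted p of 8.27e-06. Of all probes, 1.88% had groups without overlap between HF and Control and 4.98% between HP and HF. HP exceeded Control by 0.37 ± 0.30 (95% confidence interval -0.27 to 1.00, limma adjusted p = 0.61), with values that overlapped. Within slides that held both diets, HF minus Control was -3.57 on slide 1, -3.60 on slide 2 and -3.0 on slide 3. Without Control 6 it was -3.30 (limma adjusted p = 2.84e-06).

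The Fabp5 probe, at chrUn:41847300-41847359, was accompanied on the array by 3 probes for loci that the array files describe as similar to epidermal fatty acid binding protein, and signal from near-identical copies cannot be told apart from Fabp5 itself. LOC503340 lay between -0.69 and 1.07 in Control rats, between -0.08 and 1.59 in HP rats and between -2.31 and -1.73 in HF rats. As with Fabp5, all HF rats were below all others, and the lowest Control rat was Control 6 and the highest HP rat was HP 1 on both probes. The difference of HF minus Control was -2.14 ± 0.26 (limma adjusted p = 0.000135). LOC296723 was also called, at -0.61 ± 0.15 (limma adjusted p = 0.0256), but was well above background in only 2 of 6 HF rats, so the size of that difference is not set against the others. The third, RGD1563350_predicted, was well above background on 0 of 19 arrays and did not pass the filter.

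The genes whose log2 ratios were most like those of Fabp5 over the 19 arrays, among 10761 named genes, were Scd2 (r = 0.96), Scd (0.95), Gapdh (0.94), Tkt (0.94) and Tkfc (0.93). Scd2 and Scd encode stearoyl-CoA desaturases, which make monounsaturated fatty acids, Gapdh a glycolytic enzyme, Tkt the pentose phosphate enzyme transketolase and Tkfc a kinase of fructose breakdown. All 5 were lower in HF than in Control (limma), with log2 differences of -2.92 for Scd2, -5.17 for Scd, -0.52 for Gapdh, -1.02 for Tkt and -1.34 for Tkfc. Because they were picked for following Fabp5, their shared direction is no separate finding. These correlations describe 3 diet groups on shared arrays and mix the difference between diets with the variation inside them. After the mean of each diet was subtracted Scd2 still ranked first (r = 0.85), whereas the other genes were no longer among the 5 closest.

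**Figure D3:**
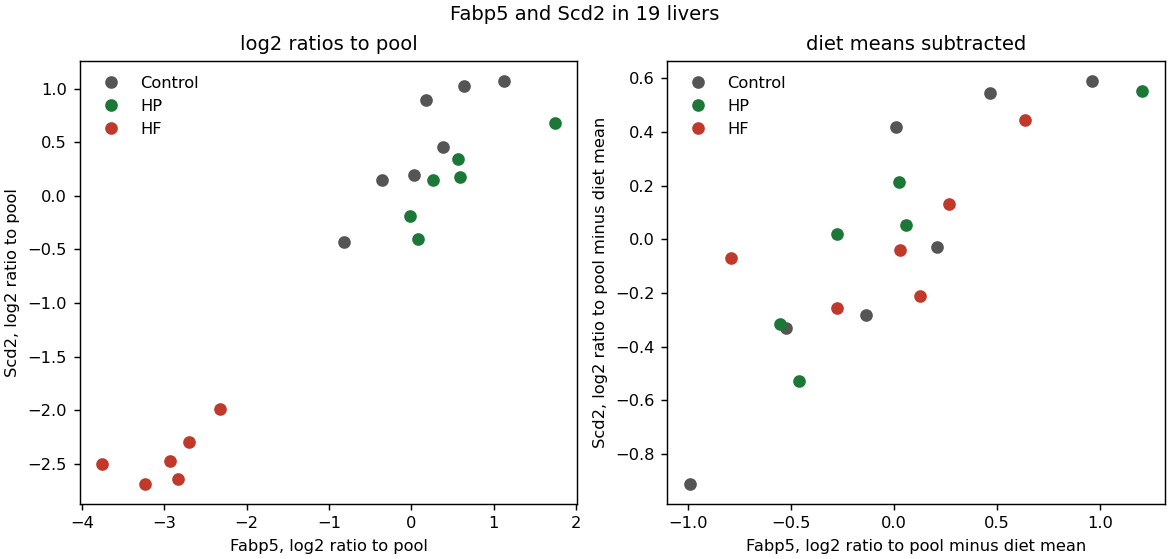
Log2 ratio to the pool of Scd2 (y) against Fabp5 (x) in 19 livers, coloured by diet, as measured (left) and with diet means subtracted (right). The 6 HF rats form a separate group on the left (r = 0.96 over all rats), and on the right the remaining variation between rats is shown (r = 0.85).

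Fabp7, the brain-type fatty acid binding protein, was read at chr20:36815975-36816034 and varied more between rats of 1 diet than 98.9% of all probes. Its log2 ratio ran from -1.77 to 0.19 in Control rats (median -0.41), from -1.94 to 0.10 in HP rats (median -0.82) and from 0.01 to 1.28 in HF rats (median 0.77). Every HF rat was above 0, and the HF group overlapped the others only through its lowest rats, HF 6 and HF 4. HP was lower than HF by a log2 difference of -1.55 ± 0.36, so that HF livers had 2.93 times the HP level (limma adjusted p = 0.0118). HF exceeded Control by 1.15 ± 0.35 (95% confidence interval 0.42 to 1.87), which did not pass (limma adjusted p = 0.079). HP minus Control was -0.40 ± 0.35 (limma adjusted p = 0.63).

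The lowest Fabp7 values of all 19 rats, those of HP 1 (-1.94), HP 4 (-1.83) and Control 1 (-1.77), were all on slide 1. The HF rat of the same slide stood at 0.89, among the highest. Within slide 1 the log2 difference of HP minus HF was -2.78 with 2 rats against 1, and no other slide held both diets. HF minus Control was 2.66 on slide 1, 0.97 on slide 2 and 1.41 on slide 3. Without the arrays of slide 1, HP minus HF was -1.01 and no longer passed (limma adjusted p = 0.053). With slide as a block it was -1.97 (limma adjusted p = 0.013), and HF minus Control became 1.55 and passed (limma adjusted p = 0.0112). HF minus Control also passed without Control 6, at 1.27 (limma adjusted p = 0.0471). It stayed uncalled in 30 of 32 alternatives.

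**Figure D4:**
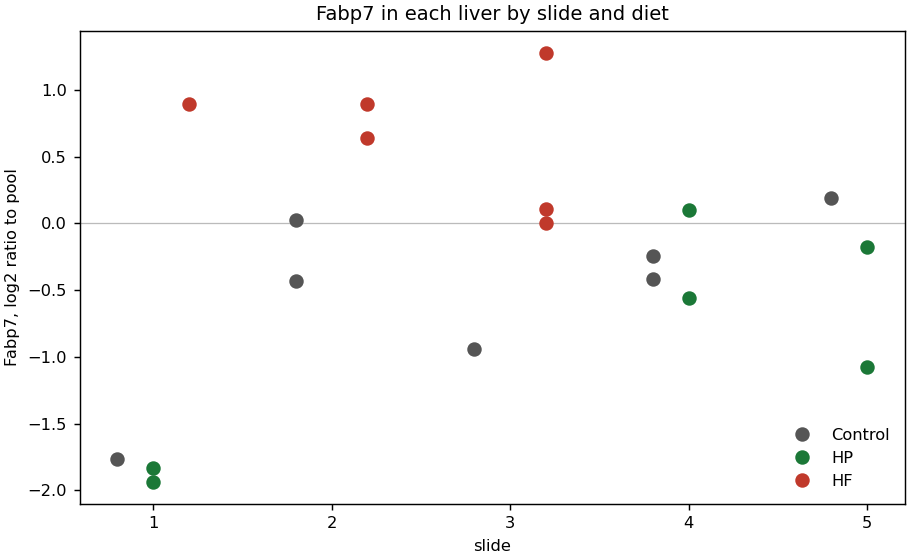
Log2 ratio of Fabp7 to the pool in each of the 19 livers (y) by slide (x), coloured by diet. On slide 1 the Control rat and both HP rats lie at or below -1.77 and the HF rat at 0.89.

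Slc27a2, the very long-chain acyl-CoA synthetase and fatty acid transport protein, was read by 2 probes that lie close together, at chr3:114114177-114114236 and chr3:114113856-114113915. With the second of these, log2 ratios ran from -0.24 to 0.11 in Control rats (median -0.02), from -0.60 to -0.12 in HP rats (median -0.24) and from 0.08 to 0.54 in HF rats (median 0.24). Every HF rat was above every HP rat, with Control rats between and overlapping both. HP minus HF was -0.54 ± 0.09, a 1.46-fold higher level in HF (limma adjusted p = 0.000863). HF minus Control was 0.31 ± 0.09 (limma adjusted p = 0.0538) and HP minus Control -0.23 ± 0.09 (limma adjusted p = 0.22), and neither passed. HF minus Control passed when 1 rat was left out, be it Control 2 (0.34), HP 1 (0.31), HF 2 (0.35) or HF 3 (0.35), with limma adjusted p between 0.0276 and 0.0486. These were 4 of 19 omissions, over which limma adjusted p reached 0.14. With only probes above background on all 19 arrays kept, HF minus Control also passed (0.31, limma adjusted p = 0.0478). It stayed uncalled in 26 of 31 alternatives.

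The other Slc27a2 probe, A_43_P12655, gave the same direction as A_44_P997755 with a smaller size. Its log2 ratios ran from -0.27 to 0.01 in Control rats, from -0.59 to 0.09 in HP rats and from -0.09 to 0.36 in HF rats, and the groups overlapped. HP minus HF was -0.40 ± 0.10 (limma adjusted p = 0.0177) and HF minus Control 0.26 ± 0.09 (limma adjusted p = 0.17), which passed on Cy5 alone (0.36, limma adjusted p = 0.0163). That HF minus Control difference stayed uncalled in 31 of 32 alternatives. The lowest value on both probes belonged to HP 1. Without HP 1, HP minus HF was -0.48 on A_44_P997755 and -0.32 on A_43_P12655, and both still passed. With slide as a block, HP minus HF was -0.46 on A_44_P997755 (limma adjusted p = 0.10) and -0.41 on A_43_P12655 (limma adjusted p = 0.20), so neither call was kept. Without the arrays of slide 1 it was -0.48 on A_44_P997755 (limma adjusted p = 0.0105) and -0.24 on A_43_P12655 (limma adjusted p = 0.17).

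The upstream sequences of Fabp7 and Slc27a2, the pair of members lower in HP than in HF, and of Fabp1, the main liver form, are given from RefSeq on build GRCr8, which is not the build of the array files. Entries were found for 5 of the 7 members, without Fabp4 and Fabp5. Each runs 250 bases up to the gene's start on the plus strand, at chr20:37669356-37669605 for Fabp7, chr3:134257851-134258100 for Slc27a2 and chr4:104749090-104749339 for Fabp1. Capitals mark matches, on either strand, to AGGTCA (a nuclear receptor half-site), the paired form AGGNCA, any 1 base, then AGGTCA (a direct repeat of such sites, which contains the former), TATAAA and CCAAT, which were searched on both strands.
Fabp7: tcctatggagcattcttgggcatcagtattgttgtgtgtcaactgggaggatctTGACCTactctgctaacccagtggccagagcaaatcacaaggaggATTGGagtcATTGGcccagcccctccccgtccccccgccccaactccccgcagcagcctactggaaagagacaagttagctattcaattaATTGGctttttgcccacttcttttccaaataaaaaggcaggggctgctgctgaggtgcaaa
Slc27a2: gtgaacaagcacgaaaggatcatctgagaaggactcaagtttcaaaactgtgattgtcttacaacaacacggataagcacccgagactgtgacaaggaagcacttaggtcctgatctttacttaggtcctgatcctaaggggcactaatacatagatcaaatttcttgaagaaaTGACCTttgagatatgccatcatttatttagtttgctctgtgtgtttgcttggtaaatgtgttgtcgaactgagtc
Fabp1: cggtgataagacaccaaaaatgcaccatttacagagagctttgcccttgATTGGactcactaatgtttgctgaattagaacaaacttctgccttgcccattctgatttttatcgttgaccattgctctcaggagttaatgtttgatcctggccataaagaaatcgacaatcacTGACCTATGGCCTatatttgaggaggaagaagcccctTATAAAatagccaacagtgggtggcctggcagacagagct

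AGGTCA was matched in all 3 of these sequences, as it was in 14.1% of 33469 promoter sequences of the same length. It lay at -76 in Slc27a2, -77 in Fabp1 and -196 in Fabp7, and was not found in the sequences of Fabp2 and Cd36. The paired form was matched in Fabp1 alone of the 5 members, and in 0.0866% of all promoters. TATAAA was matched in Fabp1 and Cd36 (12.9% of all promoters) and CCAAT in Fabp1, Fabp2 and Fabp7 (34.0%). The motifs were chosen with the members known, and a match is a string of letters and no evidence of binding.

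Cd36, the fatty acid translocase of the plasma membrane, was read by a probe printed 10 times on each array, at chr4:13518295-13519542. Its log2 ratios ran from -0.63 to 1.103 in Control rats (median -0.11), from -0.37 to 0.28 in HP rats (median -0.07) and from -0.27 to 0.70 in HF rats (median 0.42). The groups overlapped, and Control 7 lay above every other rat. The SD over the spots of 1 array was between 0.03 and 0.11, below the within-diet SD between rats of 0.41. HF minus Control was 0.38 ± 0.21 (limma adjusted p = 0.40), HP minus HF was -0.42 ± 0.22 (limma adjusted p = 0.30) and HP minus Control was -0.03 ± 0.21, whose sign changed under other settings. Without Control 7, HF minus Control was 0.57 and passed (limma adjusted p = 0.0416). This difference stayed uncalled in 31 of 32 alternatives.

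Fabp2, the intestinal fatty acid binding protein, was read at chr2:219605027-219605086. Its log2 ratios ran from -0.82 to 0.27 in Control rats (median -0.05), from -0.65 to 0.29 in HP rats (median -0.28) and from -0.09 to 0.97 in HF rats (median 0.26). The highest values were those of HF rats and the lowest that of Control 6, and the groups overlapped. HF minus Control was 0.48 ± 0.18 (limma adjusted p = 0.19) and HP minus HF was -0.56 ± 0.19 (limma adjusted p = 0.083). HP minus HF passed without Control 6 (limma adjusted p = 0.0378), without HP 3 (-0.66, limma adjusted p = 0.042) and with the arrays scaled to a common spread (-0.57, limma adjusted p = 0.0473). It stayed uncalled in 29 of 32 alternatives. Among these were slide as a block (-0.52, limma adjusted p = 0.47) and slide 1 left out (-0.36, limma adjusted p = 0.44).

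Fabp4, the adipocyte fatty acid binding protein, was the dimmest member and gave log2 ratios between -0.38 and 0.21 over all rats. Its Cy5 signal was well above background in 5 of 7 Control, 5 of 6 HP and 5 of 6 HF rats, at chr2:93536175-93538589. The Cy3 signal of the pool was so in 2 Control, 3 HP and 3 HF arrays, so that most ratios had a denominator near background. HF minus Control was -0.06 ± 0.09 and HP minus HF was 0.05 ± 0.10, with the 3 groups overlapping, and these errors hold for this background correction alone: with processed signals HF minus Control was 0.07 ± 0.44. A difference in Fabp4 could not be measured reliably at this signal. Of 7 adipocyte markers 2 passed the filter, and Adipoq, Plin1, Lep and Retn did not.

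Of 19 further genes of fatty acid binding and transport, 13 were measured. Between HF and Control, on the brightest probe of each gene, 1 rose and 0 fell, against 2.21% of 10870 named genes higher and 1.77% lower. The gene was Slc27a5, the bile acid and very long-chain acyl-CoA ligase of liver, at 0.67 ± 0.13 (limma adjusted p = 0.00512), and its other probe gave 0.55 (limma adjusted p = 0.0142). Dbi, the acyl-CoA binding protein, was at -0.73 ± 0.20 (limma adjusted p = 0.0533) and was called lower on its other probe (-0.70, limma adjusted p = 0.0497). Between HP and HF 2 were higher in HP and 1 lower, against 4.42% and 3.17% of named genes. Dbi was higher by 0.88 ± 0.21 (limma adjusted p = 0.0143) and Got2, a mitochondrial aminotransferase also described as a membrane fatty acid binding protein, by 0.20 ± 0.06 (limma adjusted p = 0.0486). Slc27a5 was lower in HP by a log2 difference of -0.61 ± 0.14 (limma adjusted p = 0.00836), in the same direction as Slc27a2. The other measured genes of that family were not called. HP minus HF was 0.23 ± 0.10 for Slc27a4 (limma adjusted p = 0.18), in the opposite direction, 0.08 for Slc27a1 and -0.03 for Slc27a3. The calls of Slc27a5, Dbi and Got2 were lost with slide as a block, with HP minus HF at -0.60, 0.87 and 0.18 (limma adjusted p = 0.18, 0.23 and 0.37) and HF minus Control of Slc27a5 at 0.64 (limma adjusted p = 0.052). Between HP and Control 0 of 13 were called by limma (0.432% of named genes higher and 0.11% lower), with 2 at an unadjusted p under 0.05. The list's median log2 difference was 0.05 for HF minus Control and -0.02 for HP minus HF, against -0.0097 and 0.0083 over named genes.

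None of the 4 measured long-chain acyl-CoA synthetases, which trap fatty acids in the cell as coenzyme A esters, was called by limma in any of the 3 comparisons (1 at an unadjusted p under 0.05, in HP against HF). That gene was Acsl5, at 0.51 ± 0.17 (limma adjusted p = 0.082). Of 10870 named genes, 2.21% were called higher and 1.77% lower in HF against Control. In HP against HF these shares were 4.42% and 3.17%, and in HP against Control 0.432% and 0.11%.

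Of 13 lipases, lipase regulators and lipoprotein receptors that bear on fatty acid supply, 11 were measured, and between HF and Control 2 were lower and 0 higher on the brightest probe of each gene. Of 10870 named genes, 1.77% were called lower and 2.21% higher in that comparison. Angptl4, a secreted inhibitor of lipoprotein lipase, differed by -0.79 ± 0.19 (limma adjusted p = 0.0222) and Lipc, hepatic lipase, by -0.32 ± 0.08 (limma adjusted p = 0.0258). Between HP and HF Angptl4 was called, higher in HP by 0.69 ± 0.20 (limma adjusted p = 0.0383), where 4.42% of named genes were higher and 3.17% lower. Lrp1, a lipoprotein remnant receptor, was not called on its brightest probe (HF minus Control 0.16, limma adjusted p = 0.31). On its other probe, A_44_P333071, it was higher in HF than in Control by 0.22 (limma adjusted p = 0.0152) and HP minus HF was -0.25 (limma adjusted p = 0.00593). The calls of Angptl4 and Lipc were lost with slide as a block, with HF minus Control at -0.55 for Angptl4 (limma adjusted p = 0.26) and -0.28 for Lipc (limma adjusted p = 0.215), and HP minus HF at 0.27 for Angptl4 (limma adjusted p = 0.68). Between HP and Control 0 were called by limma (0.432% of named genes higher and 0.11% lower), and 0 had an unadjusted p under 0.05.

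Of 22 transcription factors known to act on genes of this family, 20 were measured. In HF against Control 1 was called higher and 2 lower, against 2.21% and 1.77% of 10870 named genes. In HP against HF 2 were higher and 1 lower, against 4.42% and 3.17%. Between HF and Control, Mlxipl, the carbohydrate response factor ChREBP, was lower by a log2 difference of -0.70 ± 0.15 (limma adjusted p = 0.0094). Srebf1, a factor of fatty acid synthesis, differed by -0.80 ± 0.19 (limma adjusted p = 0.0205), and Creb3l3, a liver factor of fasting and lipid metabolism, by 0.41 ± 0.11 (limma adjusted p = 0.0465). The same 3 genes were called between HP and HF, Srebf1 at 0.95 ± 0.20, Mlxipl at 0.55 ± 0.15 and Creb3l3 at -0.61 ± 0.12 (limma adjusted p = 0.00521, 0.0351 and 0.00286). These 3 calls were lost with slide as a block (1.03, 0.46 and -0.58, limma adjusted p = 0.063, 0.41 and 0.090). In HF against Control that block kept Srebf1 (-0.87, limma adjusted p = 0.0396) and lost Mlxipl (-0.63, limma adjusted p = 0.12) and Creb3l3 (0.44, limma adjusted p = 0.10). Srebf2, a factor of cholesterol synthesis, was next by p and was not called (HP minus HF -0.17 ± 0.06, limma adjusted p = 0.085). Ppara, the fatty acid-activated receptor of hepatocytes, is named outside the rule for its known role and was not called (HP minus HF -0.24 ± 0.12, limma adjusted p = 0.25). Another Srebf1 probe, A_42_P667564, was not called (HF minus Control -0.12, limma adjusted p = 0.19), whereas A_44_P501142 was (-0.77, limma adjusted p = 0.0207). Between HP and Control 0 of 20 were called by limma (0.432% of named genes higher and 0.11% lower), with 2 at an unadjusted p under 0.05. These were Srebf2 at -0.19 ± 0.06 (limma adjusted p = 0.14) and Nr1h3 at 0.20 ± 0.08 (limma adjusted p = 0.28). Only Srebf2 had groups without overlap, 1 of 20 genes, against 0.779% of all probes. Its other probe gave -0.03 (limma adjusted p = 0.88).

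The genes most like the remaining members were also taken from the 10761 named genes. For Fabp7 they were Ces1c (r = 0.85), Sult1c2 (0.83), Slco1b2 (0.82), Psenen (0.81) and Smpdl3a (0.81), and for Slc27a2 they were Slc10a1 (0.85), Glyatl1 (0.84), Cgnl1 (0.84), Apoa5 (0.82) and Samd11 (0.81). Slc10a1 encodes the bile acid uptake carrier of hepatocytes and Apoa5 an apolipoprotein of triglyceride metabolism. For Fabp2 they were Cxcl12 (0.80), Acadl (0.80), Rnf128 (0.79), Bpifb2 (0.79) and Vnn1 (0.75), of which Acadl encodes a fatty acid oxidation enzyme. For Cd36 they were Gnat3 (0.81), Ces5 (0.79), Tnfsf10 (0.76), Sema3d (0.76) and Adtrp (0.75). Those of Fabp1 were Cul1 (0.75), Tceal8 (0.75), Mamdc4 (0.75), Ireb2 (0.73) and Otud6b (0.72), and those of Fabp4 Serpinb5 (0.76), Ddx25 (0.76), B4galt6 (0.75), Kctd5 (0.67) and Calm2 (0.67). Most Fabp4 ratios had a Cy3 signal near background, which limits what its list can show. For every member these are the highest of 10761 values, and no chance level was computed for them. After diet means were subtracted, Ces1c was still among the 5 closest to Fabp7 (r = 0.76) and Slc10a1 among those of Slc27a2 (r = 0.77).

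Among the members themselves, Fabp5 ran opposite to Fabp7 (r = -0.77) and to Slc27a2 (r = -0.66) over the 19 arrays. With diet means subtracted these values were -0.44 and -0.11. Fabp1 and Slc27a2 went from 0.29 to 0.66 when diet means were subtracted, and Fabp1 and Fabp2 from 0.37 to 0.68. All members share arrays, and these values are descriptions over 19 rats.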

How the data were processed

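Members and lists were chosen with earlier results of these data known. The scanner files deposited by the authors hold, per the file headers, spot intensity and local background, read with Agilent Feature Extraction 10.5.1.1 (also named in the submitters' processing notes). The authors also deposited log2 values for 22764 features, whose making is not given in the sources used here; after centring they followed the log ratios, and served as an alternative.

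Local background was subtracted from mean signals with normexp (offset 50), leaving out 34 spots on 5 arrays with background more than 50 above signal. Log2 ratios were loess-normalised within arrays, flagged spots dropped and spots of 1 probe averaged. Probes well above background in Cy5 on at least 6 of 19 arrays were kept. One model over 3 diets was fitted in R 4.3.3 with limma 3.58.1 (two-sided), and scripts were tested on simulated data. The Benjamini-Hochberg adjustment ran over 25292 probes, with calls at an adjusted p under 0.05. A pathway gene is its brightest kept probe. Named were all members, from each pathway list called genes and up to 4 of smallest p, and the 5 genes most like each member. Rat numbers were not used as pairs: 18 like-numbered pairs had a mean correlation of -0.0088, against 0.0011 for 102 unlike pairs. Alternatives changed background correction, normalisation, filter, probes per gene, blocks and arrays. The number of arrays limits precision.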

Additional observations from a re-analysis of the deposited data

Results flagged for a closer look

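In 27 combinations of a member probe and a diet, 3 held a rat far from the others of its group by Dixon's criterion, and chance alone flags about 1 in 20 such groups. HP 1 had a Fabp5 log2 ratio of 1.74, where the next highest HP rat had 0.60. Control 7 had a Cd36 log2 ratio of 1.103, where the next Control rat had -0.03. HP 1 had a log2 ratio of -0.60 on Slc27a2 probe A_44_P997755, where the next lowest HP rat had -0.26. Without HP 1, HP minus HF was 3.26 for Fabp5 and -0.48 for that Slc27a2 probe, and both still passed.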

How the results depend on the processing

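The call of Fabp5 in HF against Control (-3.37 to -2.97) and in HP against HF (3.26 to 3.81) was kept in all 32 alternatives. Of 855 single-probe values under alternatives, 792 kept direction and side of the threshold, 7 lost a call, 12 gained one and 44 changed sign, 0 of them called values. For Slc27a2 probe A_43_P12655, HP minus HF lost its call with normexp on every spot (-0.34), processed signals (-0.33), deposited values (-0.31), slide as a block (-0.41) and slide 1 left out (-0.24), and Slc27a2 probe A_44_P997755 with slide as a block (-0.46). Fabp7 lost it with slide 1 left out (-1.01), an alternative chosen after seeing the data. The cause of these changes was not tested.

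Member probes called in HF against Control numbered 2 with Cy5 alone, with the filter on all 19 arrays and with slide as a block (1 to 2 when leaving out single rats, 2 without Control 2, Control 6, Control 7, HP 1, HF 2 or HF 3). In HP against HF they numbered 2 with slide as a block and with slide 1 left out (4 to 5 over single rats), and by the F test 2 in both of these settings (2 to 5 over single rats, 2 without HF 5). Other pathway genes called in HF against Control numbered 3 with deposited values, 2 with Cy5 alone, 3 with only the compared groups and 1 with slide as a block (3 to 7 over single rats, 3 without HF 2 or HF 3). In HP against HF they numbered 3, 0 and 4 with Cy5 alone, slide as a block and slide 1 left out (4 to 8 over single rats, 4 without HP 2, HF 4 or HF 6). All probes called in HP against Control, 113, became 61 with normexp on every spot, 54 with processed signals, 53 with Cy5 alone, 39 with only the compared groups, 24 with slide as a block, 3 with slide 1 left out and 209 with a replicate block (26 to 460 over single rats, 26 without HP 2 or HP 6 and 460 without Control 7). With slide as a block 474 were called in HF against Control and 365 in HP against HF.

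Uncalled HP minus Control differences changed sign as follows. Fabp1 probe A_43_P15521 was 0.090 with normexp on every spot, 0.019 with processed signals, 0.15 with deposited values, 0.0058 with Cy5 alone, 0.0040 with scaled arrays and 0.20 with slide 1 left out (-0.083 to 0.086 over single rats). Fabp1 probe A_44_P427596 was -0.073 with Cy5 alone, -0.056 with slide as a block and -0.017 with a replicate block (-0.036 to 0.13 over single rats). Fabp4 was 0.040 with normexp on every spot, 0.22 with processed signals, 0.20 with deposited values and 0.026 with Cy5 alone (-0.075 to 0.027 over single rats). Cd36 was 0.13 with normexp on every spot, 0.017 with deposited values, 0.018 with Cy5 alone, 0.076 with slide 1 left out and 0.16 with a replicate block (-0.13 to 0.16 over single rats). Slc27a2 probe A_43_P12655 was 0.011 with deposited values and 0.024 with Cy5 alone. Fabp2 was 0.084 with slide 1 left out (-0.19 to 0.0045 over single rats). With slide as a block the HP minus HF differences of Fabp1 were -0.028 and -0.043, and with processed signals HF minus Control of Fabp4 was 0.069.

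With the replicate number as a block, HF minus Control was -2.97 for Fabp5 and HP minus HF was -1.55 for Fabp7; no pairwise call of a member probe was lost or gained, and 3 member probes in place of 4 passed the F test. The numbers pair no rats by the labels, and Control 7 has no like-numbered rat, so this block leaves it without weight.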

Other observations

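Positions of RefSeq genes on GRCr8 were set beside the genes most like each member. Gnat3, the closest of 10761 named genes to Cd36 (r = 0.81), is the next protein-coding gene on the lower side of Cd36, and Smpdl3a, the fifth closest to Fabp7 (r = 0.81), is the next on the upper side of Fabp7. Smpdl3a, a sphingomyelin phosphodiesterase-like enzyme gene, was 0.41 higher on the log2 scale in HF than in Control livers (limma adjusted p = 0.0309), and Gnat3, which encodes a taste G protein subunit, was 0.37 higher and not called (limma adjusted p = 0.15). Fabp2, Fabp4 and Fabp5 had no measured neighbour, and the neighbours of Fabp1 and Slc27a2 were measured and not among their 5 closest genes. This was noticed after the values were seen, and no chance level was computed for it.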
